A study of Mus musculus with 6 samples.

Results

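The 10 genes described here encode proteins that neutrophils store in their granules or carry at high abundance in the cytosol. They were taken by name, as every probe set annotated to 1 of the 10 symbols alone, and each symbol had 1 such probe set. The 10 probe sets stand among 22626 tested, which cover 12393 genes. They were read as primary granule genes (Mpo, Elane, Prtn3 and Ctsg) and later genes (Ngp, Camp, Ltf, Lcn2, S100a8 and S100a9).

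The samples were CD71-positive cells sorted from mouse bone marrow, labelled as erythroblasts, the nucleated precursors of red cells. CD71 is the transferrin receptor. All 6 samples came from the FVB/N strain, 3 from wild type mice and 3 from mice with a transgene for a mutant RPS19 that carries the change R62W (RPS19 is part of the small subunit of the ribosome). The sources used here do not give the promoter of the transgene, the age of the mice or whether each sample was 1 mouse. The spread within wild type may therefore be technical, and the p-values speak for these samples alone. Within the mutant group it is not technical alone, since replicate 3 differs from replicates 1 and 2 in transcripts of the sex chromosomes (values below). The 3 mutant samples carry distinct tags in their descriptions, and those of replicates 2 and 3 share a first letter that replicate 1 lacks.

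Neutrophils build their granules in a fixed order. At the promyelocyte stage they fill the primary (azurophil) granules with myeloperoxidase and serine proteases, and the transcription factors PU.1 (gene Spi1), C/EBP alpha, Gfi1 and Myb act at this stage. At the myelocyte and metamyelocyte stages, under C/EBP epsilon, they fill secondary (specific) granules with lactoferrin, the cathelicidin Camp and Ngp. S100a8 and S100a9 are calcium-binding proteins of the cytosol, not of granules, and join the later group by their time of expression. All 10 are used as markers of the neutrophil lineage.

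The stretches of 250 bases before the start sites of 2 primary and 2 later genes are printed for the motifs of PU.1 and C/EBP that they hold. They come from RefSeq promoters of build GRCm38.p6, all on the + strand. Capitals mark the letters GAGGAA (PU.1) and TTGCNNAA (C/EBP), searched on both strands. Elane lies at chr10:79886062-79886311, Mpo at chr11:87793534-87793783, Ngp at chr9:110419558-110419807 and Ltf at chr9:111019042-111019291.
Elane: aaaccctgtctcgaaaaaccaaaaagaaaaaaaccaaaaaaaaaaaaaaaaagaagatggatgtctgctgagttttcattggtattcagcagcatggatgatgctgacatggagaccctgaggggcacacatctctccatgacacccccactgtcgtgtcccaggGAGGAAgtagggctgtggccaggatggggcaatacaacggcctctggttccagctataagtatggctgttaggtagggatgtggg
Mpo: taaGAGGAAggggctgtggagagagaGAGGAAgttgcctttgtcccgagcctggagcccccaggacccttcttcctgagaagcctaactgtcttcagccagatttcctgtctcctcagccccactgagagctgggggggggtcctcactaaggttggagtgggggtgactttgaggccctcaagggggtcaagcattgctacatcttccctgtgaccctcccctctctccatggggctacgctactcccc
Ngp: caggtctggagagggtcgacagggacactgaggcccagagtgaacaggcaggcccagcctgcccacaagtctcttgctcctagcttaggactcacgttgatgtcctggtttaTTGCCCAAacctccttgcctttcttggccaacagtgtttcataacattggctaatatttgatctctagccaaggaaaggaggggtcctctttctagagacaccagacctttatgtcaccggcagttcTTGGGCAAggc
Ltf: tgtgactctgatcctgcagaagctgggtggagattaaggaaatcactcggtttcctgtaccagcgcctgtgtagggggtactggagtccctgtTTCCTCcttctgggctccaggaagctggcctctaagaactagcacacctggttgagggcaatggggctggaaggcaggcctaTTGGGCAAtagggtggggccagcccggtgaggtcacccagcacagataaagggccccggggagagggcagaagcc

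All 10 promoters were found in the RefSeq table. A PU.1 motif stood before all 4 primary genes, at 85 bases before the start in Elane, 95 in Prtn3, 216 in Ctsg, and 247 and 224 in Mpo. It also stood before 3 of the 6 later genes, Ltf (157), Lcn2 (20) and S100a8 (170 and 36), and 23.3% of all 32851 promoters hold it. A C/EBP motif stood before 4 of the 6 later genes, Ngp (138 and 11), Ltf (75), Lcn2 (216) and S100a9 (236), and before 0 of the 4 primary genes, against 9.56% of all promoters. The Ngp matches read TTGCCCAA and TTGGGCAA, each the reverse complement of the other, and the Ltf match reads TTGGGCAA. Of the other motifs searched on both strands, the RUNX motif TGTGGT stood before Ctsg and S100a9 (14.0% of all promoters) and the Myb motif TAACNG before Mpo and Elane (19.8%). The GATA motif AGATAA stood before Ltf and S100a9 (9.99%) and the TATA motif TATAAA before Ctsg and S100a8 (12.4%). The matches in these promoters overlapped in 0 cases. Such matches are descriptions of the letters, not of bound sites. In the RefSeq gene order Prtn3 and Elane are direct neighbours on chromosome 10, and S100a8 and S100a9 on chromosome 3. Camp, Ngp and Ltf share chromosome 9.

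The arrays did not vary alike. The SD of the log2 difference between a pair of arrays, over probe sets, was 0.14 to 0.19 within wild type, 0.34 to 0.50 within the mutant group and 0.38 to 0.43 between groups. The 27 probe sets for polyadenylated control transcripts, which are added to the RNA before labelling, averaged 8.05 to 8.07 (log2) in wild type, 10.57 on mutant array 1 and 12.22 and 12.26 on mutant arrays 2 and 3. The 3' minus 5' difference of the actin controls was 1.26 to 1.37 in wild type and 1.58 to 1.88 in mutant samples, and that of Gapdh -0.09 to -0.05 and 0.25 to 0.31. Mutant replicate 3 alone read 5.78 for Xist, a transcript of the inactive X chromosome, and 8.34 for the Y-linked Eif2s3y, against 11.38 to 12.07 and 2.23 to 2.45 elsewhere. Erythroid transcripts were bright on all arrays: Klf1 read 11.54 to 11.74 in wild type and 10.74 to 11.68 in mutant samples, and Tfrc, the gene of the sort marker, 12.12 to 12.15 and 11.45 to 11.99. The part of the controls, of RNA quality and of sex in the results that follow was not tested.

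Transcripts of all 10 granule genes read above the array median in these CD71-positive cells, and they moved together over the mutant arrays. All were also above the upper quartile, except Lcn2 (6.96) and Ltf (7.23) on mutant array 3 (upper quartile 7.47). Mutant replicate 1 read above all wild type arrays for 10 of 10 members, and mutant replicate 3 read below them for 10 of 10. On mutant replicate 2, 9 of 10 were below, and Prtn3 lay within the wild type range. The wild type arrays were nearly equal, and the mutant arrays lay on both sides of them. The mutant mean was lower than the wild type mean for 8 of 10 members. On each array the quartiles of all probe sets lay at 3.49 to 3.62 and 7.39 to 7.51 (log2), and the median at 5.34 to 5.40. A low value of a bulk sample may mean fewer cells of a type or less RNA per cell, which cannot be told apart here.

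**Figure D1:**
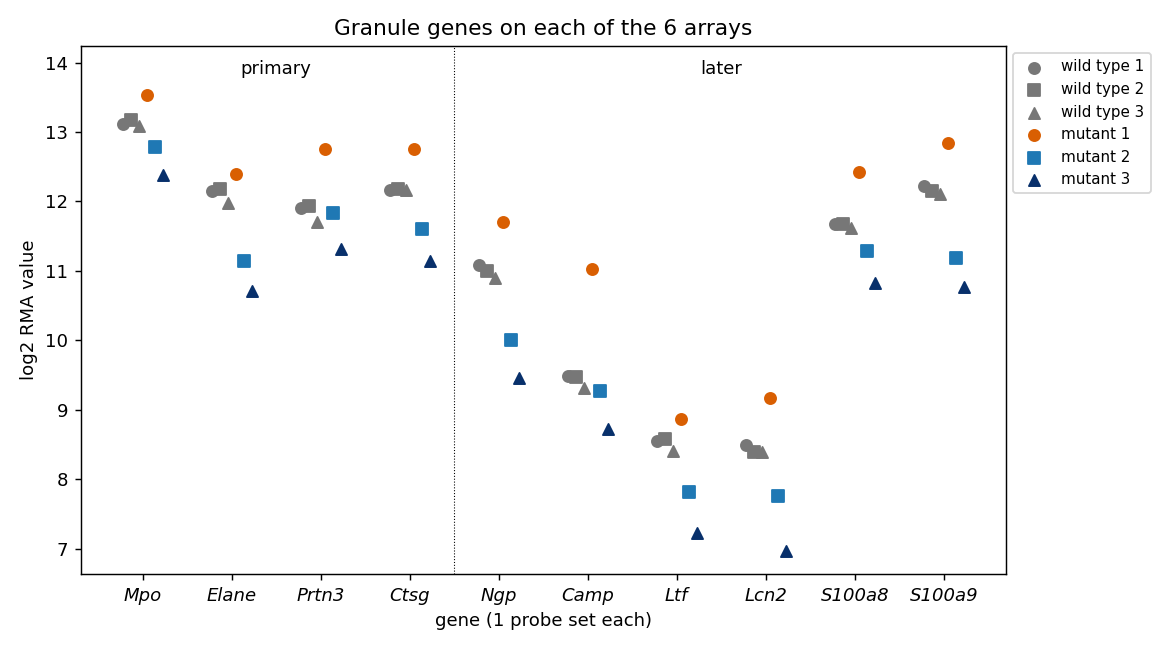
Log2 RMA values of the 10 granule genes (vertical axis) by gene, with 1 point per array for 3 wild type (grey) and 3 mutant RPS19 samples (coloured). Mutant 1 is the highest and mutant 3 the lowest point for every gene, for example 13.54 and 12.38 for Mpo, with the wild type arrays between them.

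Mpo encodes myeloperoxidase, which makes hypochlorous acid in the phagosome. It read 13.12, 13.17 and 13.08 in wild type replicates 1 to 3, and 13.54, 12.79 and 12.38 in mutant replicates 1 to 3 (log2). Mutant array 1 was 1.33-fold above the wild type mean and array 3 was at 0.599 of it, so the groups overlap. Elane encodes neutrophil elastase, the protease mutated in severe congenital and cyclic neutropenia. Its values were 12.15, 12.18 and 11.98 in wild type and 12.40, 11.14 and 10.71 in mutant samples. Here mutant array 1 lay closer to wild type than for any other member, with a deviation of 0.29 from its mean, while those of arrays 2 and 3 were -0.96 and -1.40.

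Prtn3 encodes proteinase 3, the autoantigen of granulomatosis with polyangiitis. It read 11.90, 11.94 and 11.70 in wild type and 12.75, 11.84 and 11.31 in mutant samples. This was the member whose mutant array 2 stayed within the wild type values, although its neighbour Elane was at 0.513 of the wild type mean on the same array. Ctsg encodes cathepsin G, a chymotrypsin-like protease, and read 12.17, 12.18 and 12.17 in wild type and 12.75, 11.60 and 11.14 in mutant samples. The wild type SD of Ctsg was 0.0088, the lowest of the 10, and its mutant SD was 0.83 (n = 3 each).

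Among the later genes, Ngp encodes a neutrophil granule protein related to cathelicidins. It read 11.09, 11.00 and 10.90 in wild type and 11.70, 10.01 and 9.46 in mutant samples. Mutant array 3 was 2.91-fold below the wild type mean, further than any other member on that array. Camp encodes the cathelicidin precursor of an antimicrobial peptide. Its values were 9.49, 9.47 and 9.31 in wild type and 11.03, 9.27 and 8.72 in mutant samples. The excess on mutant array 1 was 3.05-fold, the largest of the 10, and the deficit on array 2 was small, at 0.898 of the wild type mean.

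Ltf encodes lactoferrin, an iron-binding protein of the secondary granule. It read 8.55, 8.58 and 8.40 in wild type and 8.86, 7.82 and 7.23 in mutant samples. Like Elane, Ltf was only slightly above wild type on mutant array 1 (1.27-fold) and well below wild type on array 3 (2.42-fold). Lcn2 encodes lipocalin 2, which captures bacterial siderophores. It read 8.49, 8.39 and 8.39 in wild type and 9.17, 7.76 and 6.96 in mutant samples. Mutant arrays 1 and 3 differed by 2.21 on the log2 scale, or 4.64-fold.

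S100a8 and S100a9 form calprotectin, which binds zinc and manganese. S100a8 read 11.67, 11.68 and 11.62 in wild type and 12.43, 11.29 and 10.83 in mutant samples. S100a9 read 12.22, 12.15 and 12.11 in wild type and 12.84, 11.18 and 10.77 in mutant samples. On mutant array 1 both were above the wild type mean, 1.71-fold and 1.60-fold, whereas on array 3 S100a8 was 1.78-fold and S100a9 2.61-fold below the wild type mean. The S100a8 probe set is of the type whose probes may match more than 1 transcript.

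Between the genotypes, 0 of 10 members changed, against 2.33% of all 22626 probe sets (528, of which 0.941% were higher and 1.39% lower in the mutant; limma, adjusted p under 0.05). At an unadjusted p under 0.05 the count of members was also 0. The differences (mutant minus wild type, log2) ran from -0.69 ± 0.38 (SE) for Elane to 0.25 ± 0.52 for Camp, with a median of -0.40 over the members and -0.01 over all probe sets. The adjusted p was lowest for Elane (0.39, limma) and highest for Prtn3 (0.89). The 95% confidence intervals were wide, -1.79 to 0.57 for Ngp and -0.84 to 0.39 for Mpo. Both hold 0 and the deviation of mutant array 3 (-1.54 and -0.74), but not that of mutant array 1 (0.70 and 0.41). The array groups overlapped for all 10 members, whereas they did not overlap for 26.1% of all probe sets.

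The members spread more widely in the mutant group than in wild type. Over the members the SD of 3 arrays was 0.0088 to 0.13 in wild type and 0.59 to 1.2 in mutant samples. Over all probe sets the median SD was 0.090 and 0.18. Mutant array 1 was above the wild type range and arrays 2 and 3 below it for 9 of the 10 members, and for 4.56% of all probe sets. Taken array by array, 33.1% of all probe sets lay above the wild type range and 42.4% below it on mutant array 1, 33.8% and 39.7% on array 2, and 37.1% and 34.8% on array 3. The member median deviated from the wild type mean by 0.69, -0.62 and -1.15 on mutant arrays 1, 2 and 3, and the median of all probe sets by -0.04, -0.02 and 0.01. This pattern was described after the values were seen, and carries no test.

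Leaving out mutant replicate 1, 8 of 10 members fell, against 11.2% of all probe sets called (5.98% higher and 5.27% lower; limma, adjusted p under 0.05). S100a9 fell by 1.18 ± 0.13 (log2, SE, adjusted p = 0.0042, limma). Elane fell by 1.18 ± 0.14 (adjusted p = 0.0052). Ngp, with the largest difference of the 10, fell by 1.27 ± 0.16 (adjusted p = 0.0065). The others that fell were Ctsg (-0.80), Ltf (-0.98), Lcn2 (-1.06), S100a8 (-0.60) and Mpo (-0.54), with adjusted p from 0.015 to 0.042. Prtn3 (-0.28 ± 0.16, adjusted p = 0.33) and Camp (-0.43 ± 0.16, adjusted p = 0.14) did not pass. This result rests on 2 mutant arrays, so it describes mutant replicates 2 and 3 against wild type. The array left out is the one that lay on the other side of wild type. The SEs pool the spread within both groups, and that within wild type was small (SD of 0.053 for S100a9). For S100a9 mutant arrays 2 and 3 read 11.18 and 10.77. The SEs and adjusted p therefore do not measure the spread between mutant samples. Without mutant replicate 2 or 3, or without any 1 wild type array, 0 of 10 members were called by limma (0 at an unadjusted p under 0.05 in each case). Of all 22626 probe sets, 203 and 826 were called without mutant replicate 2 or 3. Without wild type replicate 1, 2 or 3 the counts were 39, 36 and 48. A count of 0 among 10 is near these shares.

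**Figure D2:**
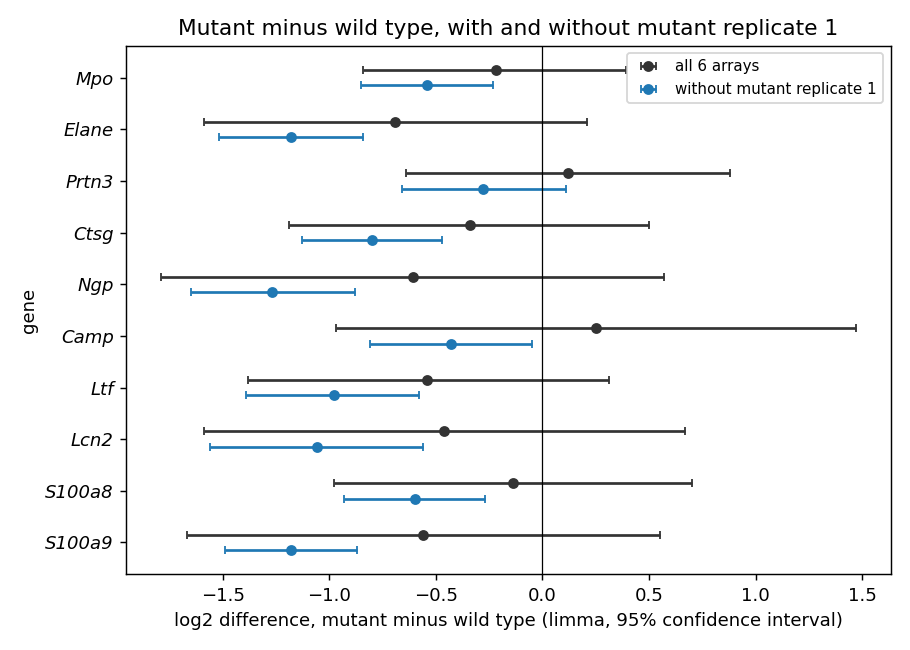
Log2 difference of each granule gene, mutant minus wild type (horizontal axis), with 95% confidence intervals from limma, for all 6 arrays (black) and without mutant replicate 1 (blue). The black intervals all include 0, while the blue interval of Elane, for example, runs from -1.52 to -0.84, and that of Prtn3 still includes 0.

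Primary and later genes moved in the same direction on every mutant array, and the later ones on average by more. Relative to the wild type mean, the 4 primary genes averaged 0.55 higher on mutant array 1 and the 6 later genes 0.81 higher (log2). On mutant array 2 the averages were -0.47 and -0.64, and on array 3 -0.93 and -1.20. Within an array, the primary minus later value was 2.12 ± 0.036 in wild type (SD, n = 3) and 1.85, 2.29 and 2.39 on mutant arrays 1, 2 and 3. The level of this value depends on the probe sets, and the difference between the classes on an array was not tested. Genes within a class spread more widely than the averages differed: on array 2 the primary genes ran from -0.96 to -0.01 and the later genes from -0.99 to -0.16. The mutant mean was 2.18 ± 0.29 (SD, n = 3), so the genotypes differed by 0.06, less than the spread of the mutant arrays. Without mutant replicate 1, 2 or 3 the difference was 0.22, 0.00 or -0.05, and it was -0.06 with medians over the genes, so its sign is not settled. The classes were not uniform: Elane, a primary gene, lay with Ngp and S100a9 on array 3 (-1.40, -1.54 and -1.39), and Camp, a later gene, with Mpo (-0.70 and -0.74).

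**Figure D3:**
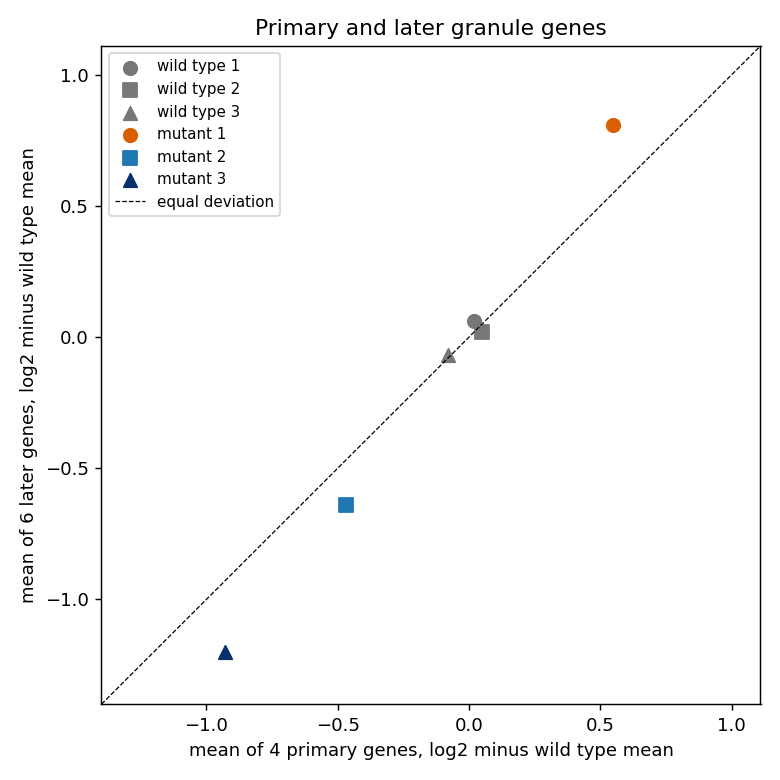
Mean deviation from the wild type mean (log2) of the 6 later genes (vertical axis) against that of the 4 primary genes (horizontal axis), 1 point per array, with a dashed line of equal deviation. Mutant 1 lies at 0.55 and 0.81, above the line, and mutant 3 at -0.93 and -1.20, below it, while the wild type arrays cluster at 0.

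Part of the other neutrophil genes shared the pattern of the members. Of 111 genes in 6 lists, written with earlier results of these data known, 90 were measured, and 5 genes stand in more than 1 list. Stfa1 and Stfa3 were read by the same probe set, which the counts over the 90 include for each. In the comparison of all arrays 0 of the 90 changed, against 2.33% of all probe sets (limma). Without mutant replicate 1, 18 fell and 1 rose, against 5.27% and 5.98% of all probe sets. On mutant array 1, 67 of the 90 were above the wild type range, 54 were below it on array 2 and 77 on array 3, against 33.1%, 39.7% and 34.8% of all probe sets. In 41 of the 90 all of these held, against 4.56% of all probe sets.

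Among 15 measured myeloid regulators the medians on mutant arrays 1, 2 and 3 were 0.61, -0.15 and -0.63, relative to the wild type mean. Without mutant replicate 1 Csf3r alone of the 15 fell, a share near that of all probe sets (5.27%). Csf3r, the receptor of the granulocyte growth factor G-CSF, read 7.51 to 7.79 in wild type and 8.13, 7.04 and 6.28 in mutant samples (-1.04 without mutant replicate 1, adjusted p = 0.027, limma). The factors named next were chosen after their values were seen. Cebpa, which encodes C/EBP alpha, read 6.74 to 6.90 in wild type and 7.53, 6.56 and 5.94 in mutant samples. Gfi1, a repressor needed for neutrophil maturation, read 6.64 to 6.92 and 7.85, 6.61 and 6.12, and Spi1, which encodes PU.1, read 7.39 to 7.68 and 8.16, 7.50 and 6.97, so that Gfi1 and Cebpa were below the wild type range on array 2 and Spi1 was within it. For these 3 the adjusted p was 0.86 or more with all arrays and 0.083 or more without mutant replicate 1. Myb, which is also active in early erythroid cells, varied less, with 11.45 to 11.53 in wild type and 11.57, 11.35 and 11.19 in mutant samples. Other regulators had other orders. Csf2rb, among the 4 of lowest p in this list, deviated by 1.26, 0.75 and -0.62 on mutant arrays 1, 2 and 3, and was thus raised on array 2. Irf8, a factor of the monocyte lineage, deviated by -0.04, 0.33 and -0.93 on mutant arrays 1, 2 and 3, Cbfb, the partner of RUNX factors, by 0.40, 0.40 and -0.66, and Klf5 was below wild type on arrays 1 and 2 (-0.25 and -0.36).

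Of 15 other genes of the primary granule and the promyelocyte, 4 fell without mutant replicate 1 (5.27% of all probe sets). Ms4a3, a membrane protein of granulocyte and monocyte progenitors, read 10.16 to 10.35 in wild type and 11.13, 9.52 and 9.03 in mutant samples (adjusted p = 0.011 without mutant replicate 1, limma). Srgn, chosen after its value was seen, encodes serglycin, the proteoglycan that packs proteases into granules, and read 12.13 to 12.14 and 12.61, 11.73 and 11.44. Ctsc, the protease that activates elastase, proteinase 3 and cathepsin G, differed by -0.51 without mutant replicate 1 and did not pass (adjusted p = 0.12). Of the 23 other genes of specific and gelatinase granules, 6 fell and 1 rose without mutant replicate 1 (5.27% and 5.98% of all probe sets). Hp (haptoglobin), chosen after its value was seen, read 9.32 to 9.50 in wild type and 10.16, 8.90 and 8.29 in mutant samples (-0.84, adjusted p = 0.027).

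Chil3 stood against this pattern. It encodes the chitinase-like protein Ym1, and read 8.077, 8.028 and 8.005 in wild type and 10.989, 8.971 and 8.535 in mutant samples. All 3 mutant arrays were above all wild type arrays, by 2.95, 0.93 and 0.50 over their mean. With all arrays the difference was 1.46 ± 0.56 (SE, adjusted p = 0.22, limma), and without mutant replicate 1 it rose by 0.72 ± 0.14 (adjusted p = 0.020). Pglyrp1, a peptidoglycan-binding granule protein, was like Chil3 on array 1 (7.54 against 5.30 to 5.74 in wild type) but read 5.85 and 5.23 on the others. Itgb2 of the same list read 8.10 to 8.18 in wild type and 7.84, 7.79 and 6.72 in mutant samples, below wild type on every mutant array.

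Of 22 measured genes of mature neutrophils, 14 were above the wild type range on mutant array 1 and 7 below it (33.1% and 42.4% of all probe sets). On array 3, 18 were below it (34.8%), and 5 fell without mutant replicate 1 (5.27%). Stfa1 and Stfa3 were read by the same probe set, which counts for each. Of the 4 genes of lowest p in this list, Ccl6, Cxcr4 and Msrb1 were below the wild type range on all mutant arrays. They deviated by -0.23, -0.14 and -0.04 on array 1 and by -0.83, -0.76 and -0.65 on array 3. Cxcr2, the chemokine receptor of mature neutrophils, read 4.04 to 4.24 in wild type and 3.86, 3.42 and 4.02 in mutant samples, which is under the array median throughout. Of 5 measured NADPH oxidase genes, which make superoxide, Cyba alone fell without mutant replicate 1 (5.27% of all probe sets). It differed by -0.92 (adjusted p = 0.029, limma), with 8.93 to 9.16 in wild type and 9.01, 8.50 and 7.80 in mutant samples. Of 15 inhibitors and binding partners of granule proteins, 3 fell without mutant replicate 1 (5.27% of all probe sets). On mutant array 1, 6 of the 15 were above the wild type range and on array 2, 7 were below it, shares near those of all probe sets (33.1% and 39.7%). Among them was Cd14, the lipopolysaccharide co-receptor, with 7.906 to 8.061 in wild type and 8.003, 6.282 and 5.230 in mutant samples. Unlike the members it was not raised on mutant array 1.

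Genes whose profile over the 6 arrays was nearest to the members were named by the root mean square distance of centred log2 values, among 838 genes with a mean above the median and a range of at least 1. For the mean of the primary genes these were Cd9 (a tetraspanin), Lta4h (leukotriene A4 hydrolase), H1f2 (a linker histone), Fpr2 (a formyl peptide receptor), Myl12b (a myosin light chain) and Sat1 (a polyamine acetyltransferase), at distances of 0.05 to 0.08 against a profile range of 1.47. For the later genes they were Ms4a3, Hp, Hsd11b1 (a glucocorticoid-activating enzyme), Dusp1 and Junb (immediate early genes) and Dio2 (a deiodinase), at 0.05 to 0.10 against a range of 2.01. The nearest to the later genes, Ms4a3, belongs by function to the earlier stage.

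Markers of other marrow cells also differed between the arrays, and in other ways. Erythroid markers (12 of 14 measured) summed to 18983 to 20356 on the linear scale in wild type and to 13104, 20866 and 21193 on mutant arrays 1, 2 and 3, so mutant array 1, the highest for granule genes, was the lowest for these. Their median deviations were -0.56, 0.12 and 0.13. B cell markers (10 of 11 measured) summed to 910 to 988 in wild type and to 969, 3643 and 1782 in mutant samples, high on the arrays where granule genes were low. Their median deviations were -0.05, 2.09 and 0.85, highest on array 2, while the granule genes were lowest on array 3. By gene, 9 of 10 lay above the wild type range on array 2 and 8 on array 3 (33.8% and 37.1% of all probe sets). Monocyte and macrophage markers (17 of 17 measured) summed to 5544 to 5641 in wild type and to 5915, 5047 and 2589. They shared the low value of array 3. On array 1 the sum was above wild type, but by gene 12 of 17 lay below the wild type range and 4 above it. Of all probe sets 42.4% and 33.1% did so. The median deviation of these markers was -0.15.

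Markers of eosinophils, basophils and mast cells (9 of 13 measured) summed to 892 to 1023 in wild type and to 2823, 861 and 380 in mutant samples. The sums had the order of the granule genes, but single genes differed. On mutant array 1, 7 of the 9 lay above the wild type range and 2 below. Of all probe sets 33.1% lay above and 42.4% below on that array, which also stands beside the counts of the next lists. On array 2, 4 of these 9 lay above the wild type range and 4 below (median -0.14), near the shares of all probe sets (33.8% and 39.7%). Megakaryocyte markers (7 of 8 measured) summed to 479 to 499 and to 898, 559 and 591. The high sum on mutant array 1 comes mostly from Pf4, which deviated by 1.36, while 4 of the 7 lay above the wild type range and 3 below. T and NK cell markers (8 of 10 measured) summed to 453 to 500 and to 782, 443 and 355. The high T and NK sum on mutant array 1 comes from Nkg7 (7.96 to 8.19 in wild type, 9.25 on that array), which is also in the promyelocyte list. On that array 6 of these 8 markers lay below the wild type range, among them Cd3e (-0.48) and Cd3d (-0.29), and the median deviation was -0.19. Neutrophil markers other than the members (11 of 15 measured, and all 15 also in the lists given before) summed to 2536 to 2847 in wild type and to 6351, 2113 and 1506. The high sum on mutant array 1 comes largely from Chil3 and Ms4a3, with deviations of 2.95 and 0.86. By gene, 9 of the 11 lay above the wild type range on that array and 2 below (median 0.86). Of all these markers Hba-a1, by the probe set that names it alone, and Il5ra were under the lower quartile on every array. With all arrays, 1 erythroid marker (Hbb-b2, a beta globin) and 1 megakaryocyte marker (Vwf) changed, both higher, and 0 in the other lists, against 2.33% of all probe sets (limma). The part of these cells in the values of the granule genes was not tested.

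**Figure D4:**
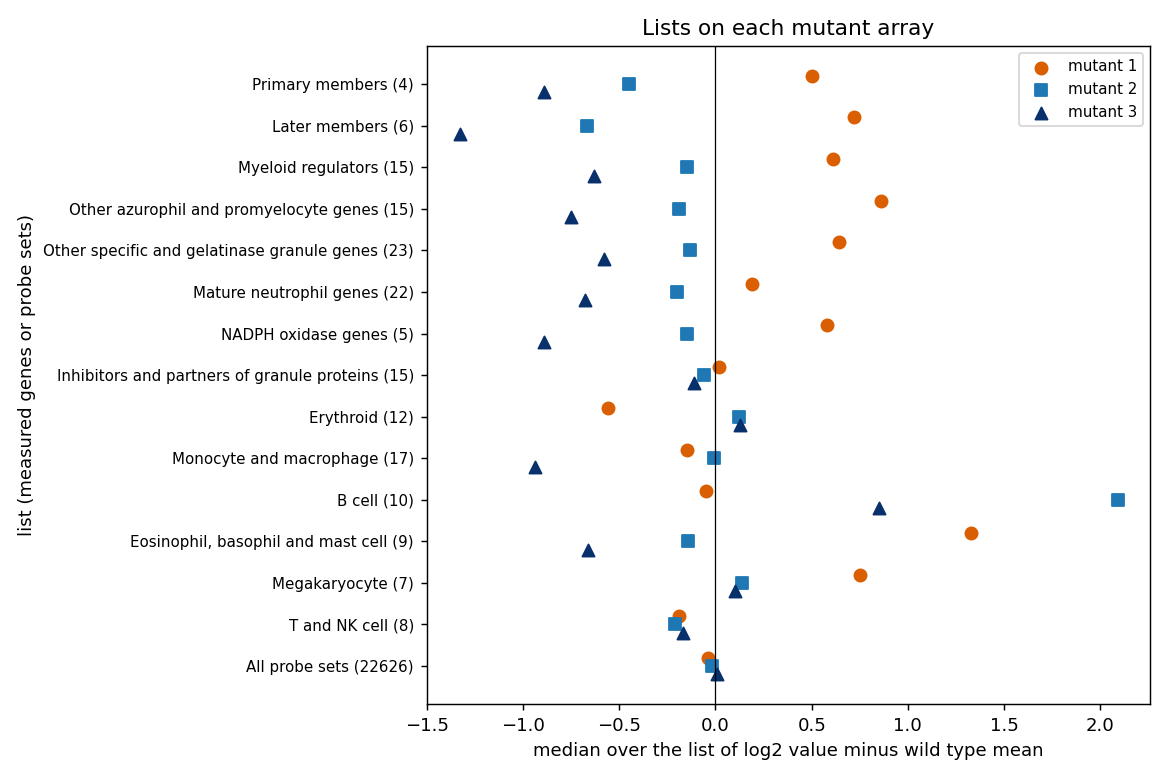
Median deviation from the wild type mean (log2, horizontal axis) of the granule genes, of other neutrophil lists and of markers of other marrow cells on each of the 3 mutant arrays, with the number measured in brackets. Later members sit at 0.72, -0.67 and -1.33 on mutant arrays 1, 2 and 3, erythroid markers at -0.56, 0.12 and 0.13, and all probe sets within 0.04 of 0.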

How the data were processed

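Each sample was hybridised to 1 Affymetrix array. Values were deposited as log2 and, per the submitters' processing notes, came from GCOS and from RMA in Affymetrix Expression Console (versions not given in the sources used here). RMA corrects background, quantile normalises and summarises probes, which compresses differences of dim probe sets. Of 22690 probe sets, 64 controls were left out. The platform annotation gave 1 symbol for 20380 of the rest, several for 691 and none for 1555. All 22626 were fitted with limma 3.58.1 in R 4.3.3 (lmFit, eBayes, two-sided, no covariates), with Benjamini-Hochberg adjustment over all of them, called at an adjusted p under 0.05. The fit was also run on simulated arrays that had the same SD in both groups for each probe set. That run does not speak to the unequal spreads of the groups seen here. Lists used the brightest probe set per gene. The rule for naming was up to 4 genes per list by lowest p. Not all of these are named in the text, and the genes marked as chosen after their values were seen lie outside the rule. Members, lists and motifs were chosen with earlier results of these data known. Alternatives were other normalisation, filters, variance models, array weights, the replicate number as a block and leaving out each array. Python 3.11.15 (pandas 2.3.3, matplotlib 3.10.9) made the tables and plots. Precision is limited by the number of arrays.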

Additional observations from a re-analysis of the deposited data

How the results depend on the processing

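With all arrays limma called 0 of 10 members (0 at an unadjusted p under 0.05). The count stayed 0 under all alternatives but array weights and the omission of mutant replicate 1. Array weights gave 2 (Elane and Ltf), where 2667 of all 22626 probe sets were called. Without mutant replicate 1 it was 8, against 11.2% of all probe sets. The 0 on leaving out each other array stands beside 36 to 826 of all 22626. The 528 called probe sets became 81 without a shared variance, 2667 with array weights, 41 with 1 probe set per gene, 1386 at an adjusted p under 0.10 and 36 to 2544 on leaving out single arrays (39, 36 and 48 without wild type replicate 1, 2 or 3, and 2544, 203 and 826 without mutant replicate 1, 2 or 3). With the replicate number as a block there were 112 called probe sets and 0 called members. Deviations of same-numbered samples correlated at 0.03 to 0.06, each of the 6 samples most with its own number, and no label ties the numbers to a shared animal or day. With array weights the signs of Prtn3 (-0.07) and Camp (-0.09) turned. On leaving out single arrays the difference ran from -0.54 to 0.04 for Mpo, -0.28 to 0.44 for Prtn3, -0.80 to 0.00 for Ctsg, -0.43 to 0.73 for Camp, -1.06 to 0.04 for Lcn2 and -0.60 to 0.20 for S100a8, while Elane, Ngp, Ltf and S100a9 kept their sign. Mutant replicate 1 or 3 was the array left out where a sign turned. The cause was not tested. The primary minus later difference between genotypes (0.06) ran from -0.05 to 0.22 on leaving out single arrays, from 0.04 to 0.08 where the array was wild type, and was -0.06 with medians over genes, so its sign turned with 2 of these choices.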

Other observations

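Single genes of other marrow cells, chosen from the marker lists, also differed over the mutant arrays. Fcer1a, the alpha chain of the IgE receptor of basophils and mast cells, read 6.29, 6.13 and 5.93 in wild type and 7.54, 4.91 and 3.90 in mutant samples. Its values thus had the order of the granule genes with a wider spread, and with all arrays the difference of -0.66 ± 0.81 (SE, adjusted p = 0.71, limma) did not pass. Prg2, the eosinophil major basic protein, read 7.89, 7.76 and 7.74 in wild type and 9.58, 7.92 and 7.14 in mutant samples, high on mutant array 1 and near wild type on array 2. Ppbp, a platelet chemokine, read 2.78 to 2.96 in wild type and 5.44, 3.12 and 2.77 in mutant samples, so mutant array 1 stood apart for it too. Ms4a6c, a gene of monocytes, read 8.65 to 8.68 in wild type and 8.58, 7.41 and 6.69 in mutant samples, low on arrays 2 and 3 without a high value on array 1. Cebpe, which encodes C/EBP epsilon, was not analysed here.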
